A study of Mus musculus with 12 samples.

Results

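The cells described here are synovial fibroblasts of mouse hind limb joints that hold UMIs of Ccl9, Rspo2, Aldh1a2 and genes found with them. They hold UMIs of at most 1 of 4 chosen genes of the synovial lining. That limit leaves out the lining gene Prg4, which was high in these cells. A UMI, a unique molecular identifier, stands for 1 captured RNA molecule. Of 21042 deposited cells, 20213 had more than 500 and fewer than 5000 detected genes, and 16430 of these had UMIs of at least 4 of 7 fibroblast genes (Dcn, Lum, Gsn, Fbln1, Serpinf1, Pdpn and Pdgfra) and are called fibroblast-gate cells. A cell belonged to the Ccl9/Rspo2/Aldh1a2 subset when it also had UMIs of at least 4 of the 7 subset genes Ccl9, Rspo2, Aldh1a2, Nt5dc2, F13a1, Col22a1 and Slc7a2 and of at most 1 of the 4 lining genes Clic5, Tspan15, Htra4 and Itga6. The rule found 310 cells, 1.89% of the fibroblast-gate cells. It left 674 fibroblast-gate cells with 2 or more lining genes (lining-gate cells) and 15446 other fibroblast-gate cells with at most 1.

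The 12 libraries were made from live CD45-negative cells sorted after collagenase digestion of hind limb joints of C57BL/6 wild-type mice, which per the study's methods were males 8 to 10 weeks old. They carry 4 labels with 3 libraries each. Libraries labelled rest come from mice without serum (day 0). The others come from mice with serum transfer-induced arthritis (STIA), a transient arthritis that follows intravenous serum of K/BxN mice, taken on days 7 to 9 (peak), on day 15 (resolving) or on day 22 (resolved). Each library holds the pooled joints of 3 animals, so that a library and not an animal is the replicate here. The sort leaves out blood cells by CD45 and keeps every other joint cell that the digestion frees, and nothing in it selects fibroblasts or the lining. The libraries total 7969872 to 17047322 UMIs over 1277 to 2817 deposited cells each, and the median of 5358 UMIs per deposited cell was the same in all 12.

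The libraries did not group by their labels. The deposited cell barcodes carry suffixes 1 to 12, which run through rest 1, peak 1, resolving 1 and resolved 1 as suffixes 1 to 4, and in the same order through the libraries numbered 2 (suffixes 5 to 8) and 3 (suffixes 9 to 12). Over summed expression, 12 of 12 libraries correlated best with a library of their own run of suffixes (1 to 3, 4 to 6, 7 to 9 or 10 to 12), and 0 with a library of their own label. Each run holds 3 different labels. What the runs stand for is not given in the sources used here. Whether each label belongs to the library it is deposited with could not be checked, so every comparison of labels below holds only if it does. Libraries are called below by suffix, with the label as deposited. No cell barcode was shared between libraries.

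The synovial membrane is built by fibroblasts of the lining, which face the joint space and secrete hyaluronan and the lubricating proteoglycan lubricin (Prg4), and fibroblasts of the sublining, which lie around vessels in looser matrix. Retinoic acid is made from retinaldehyde by enzymes such as Aldh1a2 and acts through nuclear receptors, while R-spondins such as Rspo2 strengthen Wnt signals by keeping Frizzled receptors on the cell surface. Fibroblasts also signal to leukocytes through chemokines, of which Ccl9 is a CC type that acts through Ccr1.

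The promoter sequences below are those of the defining genes Ccl9 and Aldh1a2 and of Sfrp2 and Cxcl14, the genes whose levels in subset cells differed most clearly between runs. Each is the 250 bases before the start of the gene on its own strand, 5′ to 3′, from RefSeq on GRCm38.p6, with capitals for matches to 3 motifs searched on both strands. The TATA box was searched as TATAAA. The motif of AP-1, a factor that many inflammatory and growth signals activate, was searched as TGACTCA. That of the C/EBP factors was searched as TTGCNNAA. Of the 7 subset genes, 4 had an entry in the promoter table.
Ccl9, chr11:83578637-83578886, minus strand: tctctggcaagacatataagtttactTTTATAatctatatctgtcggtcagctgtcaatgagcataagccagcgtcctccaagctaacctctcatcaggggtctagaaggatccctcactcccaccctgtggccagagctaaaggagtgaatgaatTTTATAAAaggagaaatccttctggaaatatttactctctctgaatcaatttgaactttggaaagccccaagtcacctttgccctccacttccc
Aldh1a2, chr9:71215539-71215788, plus strand: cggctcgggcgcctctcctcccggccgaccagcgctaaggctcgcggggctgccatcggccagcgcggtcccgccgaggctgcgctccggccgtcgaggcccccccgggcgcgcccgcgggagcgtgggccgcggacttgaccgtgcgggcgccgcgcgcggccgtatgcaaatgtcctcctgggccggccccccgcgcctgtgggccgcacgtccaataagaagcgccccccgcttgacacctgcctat
Sfrp2, chr3:83766071-83766320, plus strand: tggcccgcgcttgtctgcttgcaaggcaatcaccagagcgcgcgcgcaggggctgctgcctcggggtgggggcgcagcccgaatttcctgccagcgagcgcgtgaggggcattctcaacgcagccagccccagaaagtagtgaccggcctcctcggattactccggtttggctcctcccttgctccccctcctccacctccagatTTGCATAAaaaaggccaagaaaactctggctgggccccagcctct
Cxcl14, chr13:56296552-56296801, minus strand: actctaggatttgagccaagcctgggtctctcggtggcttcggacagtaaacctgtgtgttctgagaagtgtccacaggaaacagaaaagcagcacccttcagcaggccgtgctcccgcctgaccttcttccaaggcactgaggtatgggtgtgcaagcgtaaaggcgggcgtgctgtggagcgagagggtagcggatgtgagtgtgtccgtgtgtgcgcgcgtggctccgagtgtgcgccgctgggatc
The Ccl9 window held 3 TATAAA matches, the nearest 92 to 87 bases before the start and overlapping another on the minus strand. It held no AP-1 or C/EBP match. The Sfrp2 window held a C/EBP match 45 to 38 bases before the start and no other match, and the Aldh1a2 and Cxcl14 windows held none of the 3 motifs. Among 32851 promoter windows of the same length, 12.4% held TATAAA, 4.46% the AP-1 motif and 9.56% the C/EBP motif. A match describes letters in the window and no binding.

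The 7 subset genes were detected unevenly among the 310 cells, which is a description of what the rule selected and no test. Nt5dc2, of the 5′-nucleotidase domain family (chromosome 14, 31131053 to 31139124, GRCm38), had a UMI in 85.2% of subset cells and 16.5% of the other cells. Slc7a2, a transporter of cationic amino acids (chromosome 8, 40862396 to 40922308), was detected in 77.4% and 14.1%. Of the 7 subset genes, these were the most often detected in the other cells.

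F13a1, the A chain of the cross-linking coagulation factor XIII (chromosome 13, 36867178 to 37050244), was detected in 67.7% of subset cells, 3.30% of the other cells and 78.5% of lining-gate cells. Col22a1, a collagen of tissue junctions (chromosome 15, 71795795 to 72034227), gave 67.4%, 2.78% and 78.8%. Both were thus detected in a larger share of lining-gate cells than of subset cells.

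Ccl9 (chromosome 11, 83572919 to 83578636) was detected in 65.2% of subset cells, 3.71% of the other cells and 16.6% of lining-gate cells. For Aldh1a2 (chromosome 9, 71215789 to 71296243) the shares were 51.6%, 4.77% and 28.2%, and for Rspo2 (chromosome 15, 43020794 to 43170826) 40.0%, 5.04% and 24.3%. The 3 genes that give the subset its name were more often seen in it than in lining-gate cells. Endothelial cells, which should lack the 3 genes, were taken as cells with at least 4 of 8 vascular endothelial genes. They also had fewer than 4 of the 7 fibroblast genes, which leaves out cells with more fibroblast RNA. In these 1727 cells Ccl9 was detected in 0.290%, Aldh1a2 in 0.347% and Rspo2 in 0.0579%. Their median was 3156 UMIs per cell against 9252.5 in the subset, and 1 of them (0.0579%) had 4 or more subset genes.

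Levels, which likewise describe what the rule selected, were read over the 7 libraries with at least 10 subset cells, suffixes 4 to 9 and 11. These hold 298 of the 310 cells. Levels are given as CPM, the gene's UMIs summed over the cells of a library and scaled to the same total in every sum, and ratios between cell groups as log2 of CPM + 5. Mean Ccl9 was 211 CPM in subset cells, 14.3 CPM in the other cells and 78.5 CPM in lining-gate cells, and the subset was above the lining gate in 7 of 7 libraries. The same held for Rspo2 (75.3, 13.3 and 41.9 CPM) and Nt5dc2 (263, 60.2 and 113 CPM). F13a1 was lower in subset cells (453 CPM) than in lining-gate cells (840 CPM) in 7 of 7 libraries, with 14.8 CPM in the other cells. Col22a1 (250, 8.70 and 406 CPM) was above the lining gate in 1 of 7 libraries.

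Cells near the limits differed in their Prg4 level. Exactly 4 subset genes were found in 196 subset cells, 5 in 68, 6 in 37 and 7 in 9. Those with exactly 4 had a median of 9700 UMIs, and their Prg4 summed over the group stood at 23782 CPM. The 485 cells with exactly 3 subset genes and at most 1 lining gene had a median of 11038 UMIs and a summed Prg4 of 7771 CPM. On the other side, 257 cells had at least 4 subset genes but 2 or more lining genes, 126 of them exactly 2, and the 257 together stood at 104952 CPM of Prg4. Subset cells had none (197 cells) or 1 (113 cells) of the lining genes.

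Fibroblast genes outside the rule were present in the subset but mostly lower than in the other cells. Mean Col1a1, the chain of type I collagen, was 6174 CPM against 12663 CPM. Of 12 fibroblast markers outside the rule none was higher and 8 were lower in all 7 libraries, with a median log2 ratio of -0.51. Over 5384 genes with at least 20 CPM in either group, 9.64% were higher and 9.75% lower in all 7. The other cells are a mixture in which 70.4% had at least 2 of 10 tenocyte markers, against 56.5% of subset cells. Summed counts of 15 immune genes lay between 0 and 32.1 CPM per library against 12.5 to 270 CPM in the other cells. Of these immune genes 8 were at 0 in subset cells, among them Ptprc (CD45), Csf1r and Adgre1. At least 2 of the 15 were detected in 4 subset cells (1.29%) and in 0.719% of the other cells. Summed vascular endothelial markers were 6.96 to 29.4 CPM, perivascular markers 44.5 to 187 CPM and muscle markers 0 to 38.5 CPM. Schwann cell markers summed to 28.3 to 148 CPM, above the 19.8 to 65.6 CPM of the other cells in 7 of 7 libraries, with the defining gene Sox10 at 0. Subset cells had more UMIs than the other cells, with medians of 9252.5 against 5787.5 UMIs and 2608 against 1891 genes. A rule on detected genes favours cells with more UMIs, so this describes the selection. The median was 11038 UMIs in cells with exactly 3 subset genes and 9631.5 UMIs in lining-gate cells. By doublet score, 18 of the 310 cells ranked in the top 6% of cells.

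The study compares stages of arthritis with rest, and the share of subset cells among fibroblast-gate cells varied within each label as much as between labels, and varied less within a suffix run than between runs. In the libraries suffixed 1, 2 and 3 the rule found 1, 0 and 2 cells, which is 0.0697% of 1434 fibroblast-gate cells, 0 of 1066 (a count that allows up to 0.281%) and 0.209% of 957. In those suffixed 4, 5 and 6, labelled resolved 1, rest 2 and peak 2, it found 51, 75 and 51 cells, with shares of 4.66%, 4.96% and 3.67%. In those suffixed 7, 8 and 9, labelled resolving 2, resolved 2 and rest 3, it found 30, 60 and 19 cells, at 2.03%, 2.53% and 1.84%.
The libraries suffixed 10, 11 and 12, labelled peak 3, resolving 3 and resolved 3, held 4, 12 and 5 subset cells, at 0.208%, 1.09% and 0.469%. The 3 libraries of suffixes 4 to 6, each with another label, lay above all others. Those of suffixes 1 to 3 and 10 to 12 lay below all others.
By label, the mean share was 2.29% ± 2.47 (SD, n = 3) at rest, 1.29% ± 2.06 at peak, 1.11% ± 0.911 at resolving and 2.55% ± 2.1 at resolved, so the spread within a label was about as large as its mean. An exact two-sided permutation test over all arrangements of the libraries gave p = 0.757 across labels, and p = 0.315 when labels were exchanged within suffix runs only. By run, the mean was 0.0929% ± 0.106 for suffixes 1 to 3, 4.43% ± 0.673 for 4 to 6, 2.14% ± 0.359 for 7 to 9 and 0.588% ± 0.452 for 10 to 12, with an exact permutation p = 0.00013. The runs were recognised in these data and the 7 genes were chosen with them known, so this p is no independent evidence. Fibroblast-gate cells had medians of 5670, 6608, 5953.5 and 5922 UMIs in the 4 runs. When every cell was thinned to 2000 UMIs, 62 subset cells were left, 0, 25, 30 and 7 in the 4 runs (exact permutation p = 0.00526), and the runs 4 to 6 and 7 to 9 then overlapped.

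**Figure D1:**
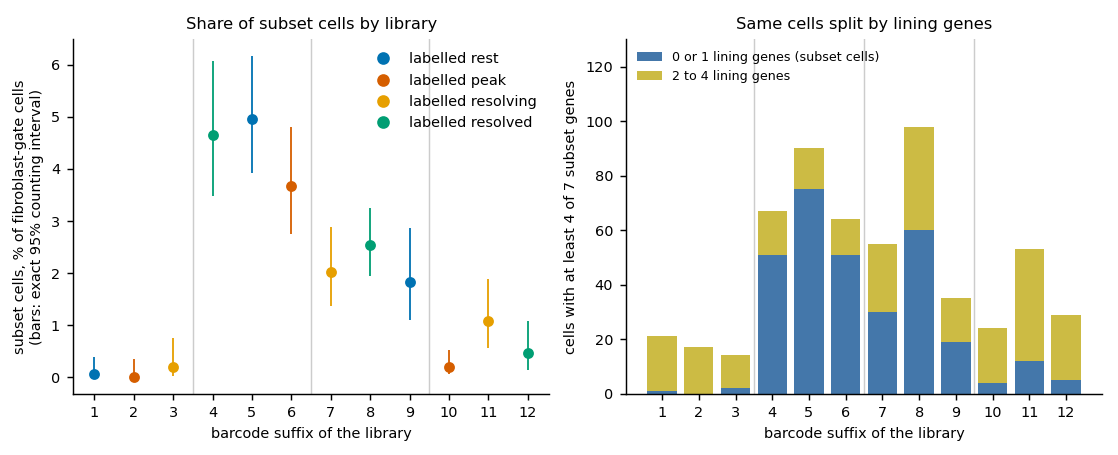
Left, share of fibroblast-gate cells (%) that met the subset rule in each of 12 libraries ordered by barcode suffix and coloured by label, with exact 95% binomial intervals that cover counting error only; right, number of cells with at least 4 subset genes, split by whether they had 0 to 1 or 2 to 4 lining genes. The libraries suffixed 4, 5 and 6 stood highest, at 3.67% to 4.96%.

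The split between runs was smaller without the limit on lining genes. Cells with at least 4 subset genes, whatever their lining genes, numbered 52, 221, 188 and 106 in the 4 runs, and 5.77%, 80.1%, 58.0% and 19.8% of them were within the limit. Without the limit, the share of fibroblast-gate cells was 1.46% to 1.60% in suffixes 1 to 3, 4.61% to 6.12% in 4 to 6, 3.39% to 4.14% in 7 to 9 and 1.25% to 4.80% in 10 to 12 (exact permutation p = 0.0114). In suffixes 1 to 3 nearly all cells with 4 subset genes or more thus also had at least 2 lining genes. Lining-gate cells made up 3.66% to 4.11% of fibroblast-gate cells there and 2.23% to 3.11% in suffixes 4 to 6.

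Because subset cells were chosen by detection of the subset genes, the levels of these genes across libraries were read in all fibroblast-gate cells. Ccl9 stood at 36.3, 30.5 and 41.0 CPM in suffixes 4, 5 and 6, at 15.6, 23.7 and 11.8 CPM in 7, 8 and 9, at 2.56, 11.7 and 4.50 CPM in 10, 11 and 12 and at 1.48, 1.32 and 2.52 CPM in 1, 2 and 3. The 3 libraries of suffixes 4 to 6 were above all others, and the 3 of 1 to 3 below all others. Nt5dc2 ranged from 74.3 to 104 CPM in suffixes 4 to 6 and from 51.6 to 75.7 CPM in 7 to 9, against 14.2 to 23.5 CPM in 1 to 3 and 8.16 to 20.6 CPM in 10 to 12. Slc7a2 was likewise higher in suffixes 4 to 9 (33.2 to 55.4 CPM) than in the other libraries (10.5 to 30.1 CPM).

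F13a1 and Col22a1 went the other way. F13a1 was lowest in suffixes 6, 4 and 9, at 45.6, 47.5 and 50.7 CPM, and highest in suffixes 11, 1 and 3, at 151, 115 and 103 CPM. Col22a1 stood at 21.7 to 24.8 CPM in suffixes 4 to 6 and at 39.9 to 90.2 CPM in 10 to 12, runs that did not overlap. Aldh1a2 was between 23.2 and 48.8 CPM in suffixes 4 to 6 and between 10.9 and 21 CPM in all other libraries. Rspo2 ranged from 5.11 CPM in suffix 2 to 28.0 CPM in suffix 8 and overlapped between most runs.

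**Figure D2:**
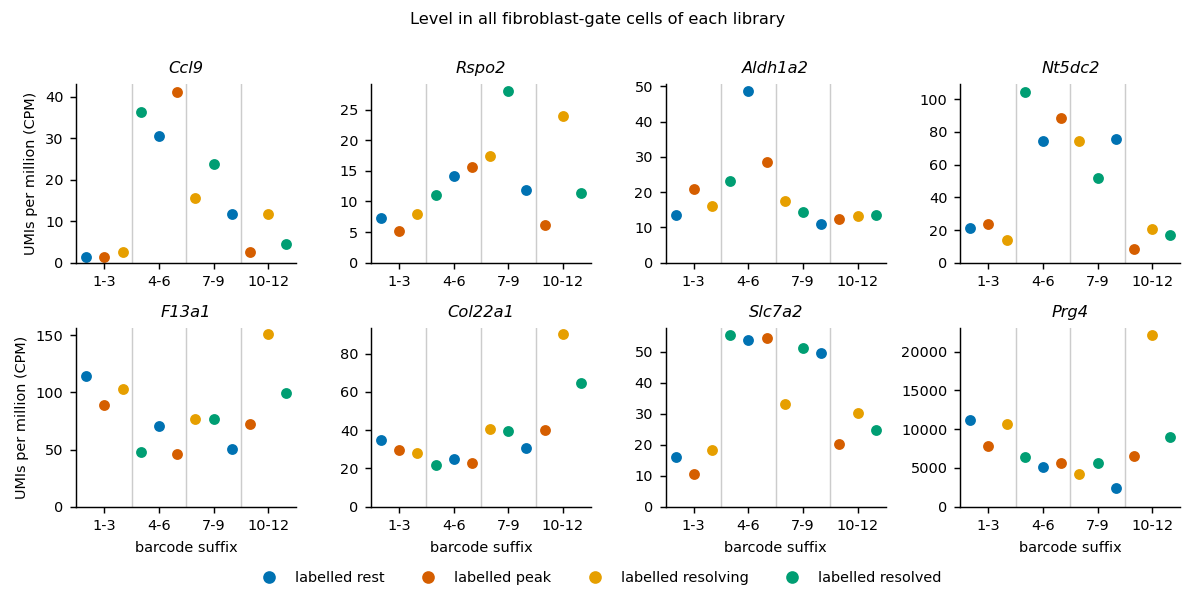
CPM of the 7 subset genes and Prg4 in UMIs summed over all fibroblast-gate cells of each of 12 libraries, ordered by barcode suffix and coloured by label. Ccl9, Nt5dc2 and Slc7a2 were higher in suffixes 4 to 9 than in 1 to 3, while F13a1, Col22a1 and Prg4 peaked in suffix 11.

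Across the 4 runs, 7 of 7 subset genes passed the edgeR quasi-likelihood test at an adjusted p under 0.05, from 1.87e-05 for Slc7a2, 2.02e-05 for Nt5dc2 and 2.70e-05 for Ccl9 to 0.0372 for Rspo2, but so did 61.6% of the 12939 genes tested. The count was 6 with libraries scaled by total counts alone, and without rest 1, peak 1, resolving 1, rest 2, peak 2, resolving 2 or resolved 2. Since the 7 genes were chosen with the runs known, these counts and p-values are no independent evidence. Across labels none of the 7 passed, where edgeR passed 0 genes in all, 39 had an unadjusted p under 0.05, and DESeq2 passed 0 as well.

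Where the UMIs of these genes lay changed between runs. In suffixes 4 to 6, 30.3% of 1153 Ccl9 UMIs of fibroblast-gate cells were in subset cells, 6.76% in lining-gate cells and 63.0% in the rest. In suffixes 7 to 9, 35.1% of 595 were in the subset and 20.7% in the lining gate, while in suffixes 10 to 12 24% of 150 and in 1 to 3 2.5% of 40 were in the subset. The lining gate held 74.6%, 37.7%, 56.9% and 83.3% of the F13a1 UMIs in the 4 runs and the subset 3.22%, 40.8%, 21.3% and 4.08%, so that the subset held the larger part in suffixes 4 to 6 alone. Rspo2 was more dispersed, and in suffixes 4 to 6 and 7 to 9 69.9% and 79% of its UMIs were in neither group.

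**Figure D3:**
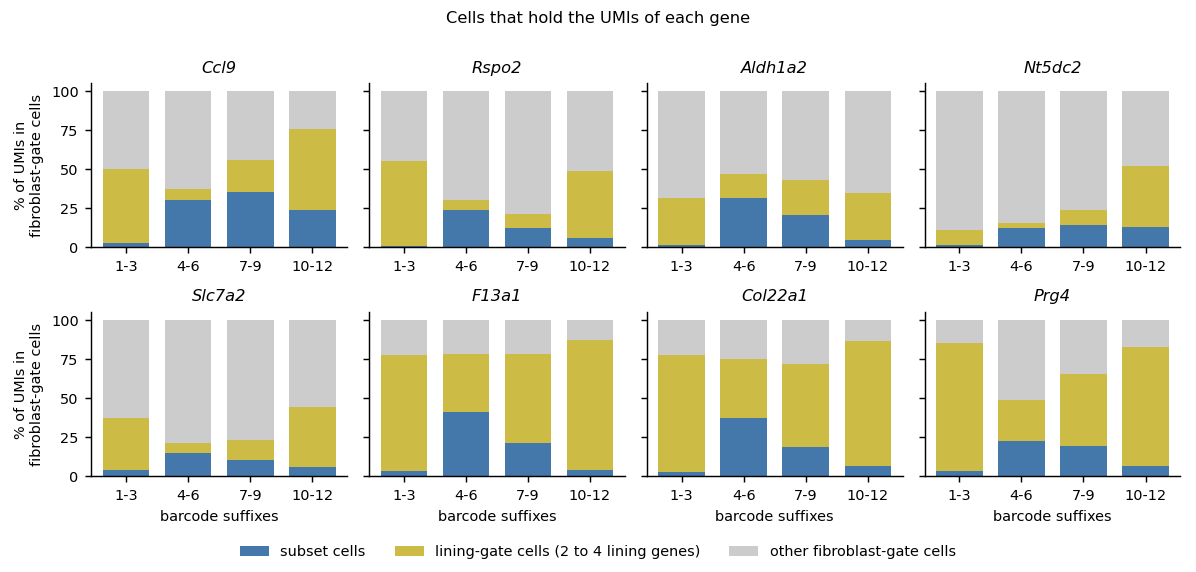
Percent of the UMIs of 8 genes that lay in subset cells, lining-gate cells or other fibroblast-gate cells, within each run of 3 libraries. For F13a1, Col22a1 and Prg4 the subset held its largest parts in suffixes 4 to 6, where 40.8%, 37.6% and 22.3% of their UMIs were in it.

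The gene with the highest ratio of subset to other cells outside the rule was Prg4, which encodes lubricin, the defining product of the lining (chromosome 1, 150449412 to 150466165). Since the subset was chosen from these cells, this and the following ratios are descriptions, with no test. Subset cells held 22232, 17123 and 28436 CPM in suffixes 4, 5 and 6, 17406, 50477 and 10709 CPM in 7, 8 and 9 and 125433 CPM in suffix 11. The other cells held 988 to 3325 CPM, and subset cells were above them in 7 of 7 libraries, with a median log2 ratio of 3.33 (lowest 2.51, highest 5.24) and of 3.15 among cells of matched UMI count. Lining-gate cells had more, with a mean of 58847 CPM against 38831 CPM in the subset.

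Prg4 was not uniform among subset cells. Its median per cell was 21551 CPM with quartiles of 5415 and 43701, against 371 CPM (81.4 and 1371) in the other cells. It was 13081 CPM in cells with 4 subset genes, 26230 with 5, 50567 with 6 and 83504 with 7, and 12530 CPM in cells with no lining gene against 37167 CPM in those with 1. A Prg4 UMI was found in 99.0% of subset cells and 75.9% of the other cells, and also in 45.4% of the endothelial cells, where the summed level was 337 CPM.

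Besides Prg4, the genes with the highest ratios included Pla2g2e, Pla1a, Sparcl1, Sox5, Srgn and Ereg. Of 5384 genes with at least 20 CPM in either group, 9.64% were higher and 9.75% lower in subset cells in all 7 libraries, and the median ratio of all was 0.05. Pla2g2e, a secreted phospholipase A2, stood at 83.5 to 193 CPM in subset cells and 10.6 to 29.3 CPM in the other cells (median log2 ratio 2.68). Pla1a, a secreted phospholipase A1, averaged 133 against 17.3 CPM (2.28) and Pltp, a phospholipid transfer protein, 211 against 75.5 CPM (1.33). All 3 were also found in lining-gate cells, at means of 159, 231 and 215 CPM.

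Sox5, a transcription factor known from cartilage development, was the only transcription factor among the 20 genes with the highest ratios. It stood at 62.2, 58.8, 69.9, 56.7, 90.4, 57.8 and 111 CPM in subset cells of suffixes 4 to 9 and 11 and at 12.9 to 26.0 CPM in the other cells, a median log2 ratio of 1.74. The library values of these cell groups did not overlap, but lining-gate cells had more Sox5 than the subset in all 7 libraries, with a mean of 135 against 72.4 CPM. Of 18 limb and joint transcription factors, Sox5 and Creb5 (0.71) were higher in all 7 libraries, and Prrx1 (-0.51), Prrx2 (-0.70) and Shox2 (-0.60) were lower, with a list median of -0.12.

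Ereg, which encodes epiregulin, a ligand of the EGF receptor, stood at 65.7, 86.1 and 60.4 CPM in suffixes 4, 5 and 6, at 46.1, 20.9 and 89.9 CPM in 7, 8 and 9 and at 126 CPM in suffix 11. Its mean of 70.7 CPM was above that of the other cells (15.0 CPM) and of lining-gate cells (45.6 CPM), the latter in 6 of 7 libraries. Hp, which encodes the haemoglobin-binding haptoglobin, averaged 1340 CPM in subset cells, 404 CPM in the other cells and 442 CPM in lining-gate cells, and was also above the lining gate in 6 of 7 libraries. Slpi, a secreted antiprotease, stood at 2782, 1537 and 4397 CPM in suffixes 4, 5 and 6 and between 674 and 1060 CPM in the other 4 libraries, against 464 CPM on average in the other cells. Ereg and Hp thus differed from Prg4, F13a1 and Col22a1, whose levels were higher in the lining gate.
Other genes of this group were Srgn, a proteoglycan core protein (339 against 126 CPM), the neutrophil chemokine Cxcl3 (98.1 against 21.4 CPM), the matrix proteins Sparcl1 (344 against 67.2 CPM) and Matn2 (387 against 150 CPM), the proprotein convertase Pcsk6 (64.6 against 18 CPM), the serine protease Htra1 (1085 against 468 CPM), Rgcc, a cell cycle regulator (1220 against 408 CPM), and Ugp2, which makes UDP-glucose (491 against 176 CPM). Lining-gate cells had still more Rgcc (3749 CPM), Sparcl1 (753 CPM), Pcsk6 (262 CPM) and Ugp2 (754 CPM). Against the other cells with few skeletal markers, described below, the ratios of Sparcl1 (1.86) and Pcsk6 (1.63) fell to 0.14 and 0.17 and that of Pla1a to 1.12, while those of Hp and Slpi were 2.63 and 3.90.

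**Figure D4:**
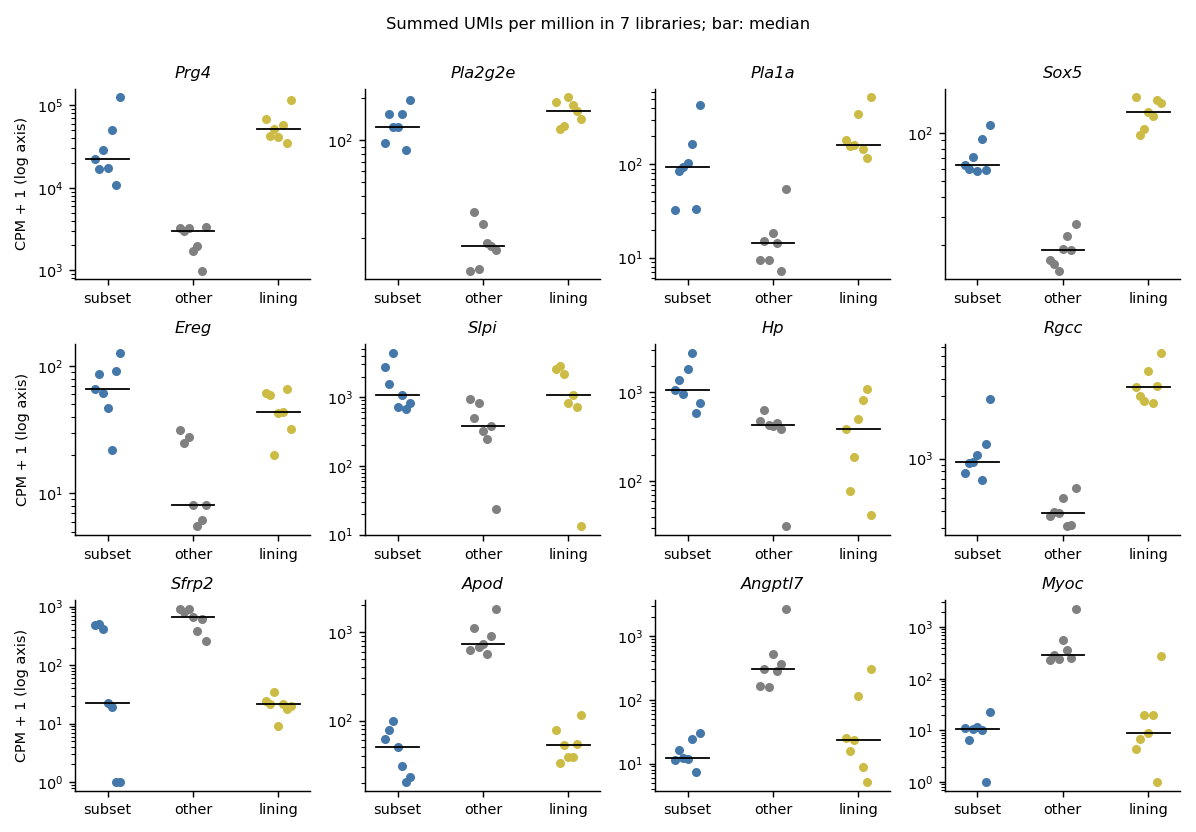
CPM + 1 (log axis) of 12 genes in subset cells, other fibroblast-gate cells with at most 1 lining gene and lining-gate cells, each point a library (suffixes 4 to 9 and 11) and each bar the median. Prg4 and Rgcc stood highest in lining-gate cells, Ereg and Hp were higher in the subset in 6 of 7 libraries, and Apod, Angptl7 and Myoc were low in the subset.

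Genes of skeletal tissues were lower in the subset in all 7 libraries. Ibsp, the bone sialoprotein of osteoblasts, averaged 6.98 against 533 CPM (median log2 ratio -4.98), Tnmd, a tendon marker, 12.9 against 462 CPM (-4.33) and Col2a1, the collagen of cartilage, 9.68 against 304 CPM (-4.32). Of the marker lists, 7 of 7 tenocyte, 9 of 10 chondrocyte and 3 of 5 osteoblast genes were lower in every library and none was higher. These ratios depend on which cells the subset is set against. Against the 2650 of 15446 other cells with fewer than 2 of 30 skeletal markers, Ibsp and Tnmd both gave 0.59 and Col2a1 0.53. The markers include these genes, and the limit was put on the other cells alone. In the subset, 56.5% of cells had at least 2 of 10 tenocyte markers.
Genes of other fibroblasts were also low. Myoc averaged 9.63 against 600 CPM, Angptl7 15.2 against 640 CPM and Apod, a lipid-binding lipocalin, 51.1 against 921 CPM. Of 11 sublining markers, 6 were lower in every library and none higher, with a list median of -1.01, among them Thy1 (40.3 against 170 CPM) and Pi16 (65.3 against 468 CPM). Of 8 lining markers outside the rule, 4 were higher in every library (Prg4, Rab37, Fn1 and Hbegf) and none lower, with a median of 0.92.

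The signalling lists around the defining genes were not raised as a whole. Of 7 retinoid genes at 20 CPM or more, none was higher in every library, and those lower in every library included Rbp4, the carrier of retinol in blood (median log2 ratio -3.14), and Rarres2, which encodes chemerin (-1.26), with a list median of -0.85. Of 8 Wnt pathway genes, none was higher and 5 were lower, which are the ligand Wnt16 and the secreted inhibitors Sfrp1, Sfrp2, Dkk2 and Wif1. Rspo3, the relative of Rspo2, had a ratio of 0.61 and was higher in 6 of 7 libraries. Of 14 chemokines, Cxcl3 was higher in every library and 5 were lower, Ccl11 (-2.65), Cxcl14 (-1.75), Ccl7 (-1.56), Ccl2 (-0.56) and Ccl8. Of 13 other inflammatory genes, Hp was higher and 5 were lower, which are the complement component C3 (-2.22), the acute-phase protein Saa1 (-1.65), the cytokines Il33 (-0.74) and Csf1 (-0.48) and Ptges, which makes prostaglandin E2 (-1.04).
Matrix genes followed. Of 10 fibrillar collagen genes, 7 were lower and 1 higher, Col5a3 (0.88), and Col1a1 stood at 6174 against 12663 CPM. Of 15 other collagens, 11 were lower, while the basement membrane chains Col4a1 (0.61) and Col4a2 (0.51) were higher. Of 4 genes of cationic amino acid transport and use other than Slc7a2, none differed in 1 direction in every library.

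Subset cells more often had UMIs of cell cycle genes. At least 4 of 10 such genes were detected in 23.2% of subset cells (72 of 310), 4.65% of the other cells and 5.79% of lining-gate cells. Among the 485 cells with exactly 3 subset genes, just outside the rule, the share was 23.1%, so that it does not set the subset apart from them. Per library, the shares in subset and other cells were 35.3% and 16.5% in suffix 4, 28.0% and 9.55% in suffix 5, 33.3% and 14.2% in suffix 6, 20.0% and 3.19% in suffix 7, 10.0% and 5.44% in suffix 8 and 21.1% and 2.45% in suffix 9, with 0 of 12 subset cells in suffix 11. The subset was thus higher in 6 of 7 libraries, and cycling cells were frequent in suffixes 4 to 6 in both cell groups. After thinning to 2000 UMIs, with at least 2 genes required, the shares were still higher in the same 6 libraries, from 11.7% against 5.29% in suffix 8 to 33.3% against 11.3% in suffix 6. Of the 12 cell cycle genes at 20 CPM, none was higher in every one of the 7 libraries, and their median ratio was 1.16.

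Within subset cells, the labels were compared over the 7 libraries, which leaves 2 at rest, 1 at peak, 2 at resolving and 2 at resolved. The lone peak library is assumed to vary like the others. Of 6455 genes tested in edgeR, 0.0155% (1 gene) changed at peak against rest, 0% at resolving and 0.0155% (1 gene) at resolved, with 57, 277 and 113 genes at an unadjusted p under 0.05. No chemokine, Wnt, retinoid, collagen or protease gene passed in any of the 3 comparisons. DESeq2 passed 1 gene at resolving.
The gene called at peak and at resolved was Gm42418, a long noncoding gene model, named here after its values were seen. It stood at 195 and 180 CPM in the rest libraries (suffixes 5 and 9), at 2544 CPM in the peak library, at 145 and 185 CPM at resolving and at 1704 and 1380 CPM at resolved. The log2 fold change was 3.75 (SE 0.40, edgeR adjusted p = 0.00883) at peak and 3.06 (SE 0.36, edgeR adjusted p = 0.0227) at resolved. All other fibroblast-gate cells had 1082 CPM in the peak library, 900 and 1565 CPM at resolved and 166 and 148 CPM at rest, so the difference was not limited to the subset. The peak call was lost without either rest library, and the resolved call without resolved 1, rest 2, peak 2 or rest 3. With at least 20 cells per sum, Gm42418 was called at neither.

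Within the subset, suffixes 7 to 9 differed from 4 to 6 in 4.9% of the 6455 genes tested (316 genes), 2.8% higher (181) and 2.09% lower (135). Of 13 chemokines 7 fell in 7 to 9, and of 14 other inflammatory genes 5 fell. Of 7 Wnt genes, 2 fell and 2 rose, secreted antagonists on both sides. Of 19 protease and inhibitor genes 5 rose and 2 fell, and of 5 interferon-induced genes 2 rose. Of 11 collagens outside the fibrillar ones 3 rose and 1 fell, and of 9 fibrillar collagens 0 were called. Each run holds libraries of 3 labels, so that this comparison is between runs of libraries, and what the runs correspond to is not known here. The rule also took in a different mix of cells in each run. In suffixes 4 to 6 and 7 to 9, Col22a1 was detected in 55.9% and 79.8% of subset cells, Ccl9 in 73.4% and 58.7% and Clic5 in 6.78% and 15.6%. Of cells with at least 4 subset genes, 80.1% and 58.0% were within the lining limit. How far this mix accounts for the differences was not tested. In 298 of the 316 genes the library values of the 2 runs did not overlap, against 22.4% of all genes tested. The 316 were called on these same libraries, so this count adds no support to the calls. Values of all other fibroblast-gate cells, lining-gate cells included, are given beside those of the subset.

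Among the Wnt genes, Sfrp2, a secreted Frizzled-related protein that binds Wnt ligands, stood at 484, 507 and 416 CPM in suffixes 4, 5 and 6, at 21.3, 18.6 and 0 CPM in 7, 8 and 9 and at 0 CPM in 11. The 3 libraries of the first run were all more than 10 times above the rest. Its log2 fold change was -4.83 (SE 0.32, edgeR adjusted p = 3.06e-07), while it was -0.74 in all other fibroblast-gate cells. These held 889, 781 and 893 CPM and then 624, 365 and 591 CPM. The lining-gate cells among them were low in Sfrp2 in both runs. They held 23.8, 20.5 and 34.0 CPM, then 7.92, 20.5 and 16.4 CPM, and 18.7 CPM in 11. The low Sfrp2 of subset cells in suffixes 7 to 9 was thus shared with the lining gate. Sfrp1, a relative of Sfrp2, fell too (-2.64). Of 7 Wnt genes tested, 2 fell and 2 rose, Sfrp4 (2.06) and Dkk3 (1.42), with a list median of -1.23 in the subset and 0.62 in the other cells. The call of Sfrp4 was lost without rest 2, peak 2, resolving 2, resolved 2 or resolving 3, and that of Dkk3 without resolved 2.

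Of 13 chemokine genes, 7 fell and none rose, with a median of -1.20 in the subset and -1.22 in the other cells, beside 0.00 and -0.07 over all genes tested. Cxcl14, a chemokine made by epithelia and stroma, stood at 980, 946 and 791 CPM in suffixes 4 to 6, at 117, 34.8 and 51.4 CPM in 7 to 9 and at 14.8 CPM in 11 (log2 fold change -3.75, SE 0.30, edgeR adjusted p = 1.99e-06). Ccl2, which attracts monocytes, went from 1361, 1469 and 1160 CPM to 624, 371 and 790 CPM (-1.20, SE 0.21, edgeR adjusted p = 0.00318), with -1.22 in the other cells. For both genes the libraries of the 2 runs did not overlap.
The neutrophil chemokine Cxcl5 stood at 1534, 1203 and 1301 CPM in suffixes 4 to 6 and at 376, 34.8 and 443 CPM in 7 to 9 (-2.36, SE 0.46, edgeR adjusted p = 0.00693, lost without peak 2). Ccl7 (-1.61), Cxcl1 (-0.79) and Cxcl3 (-2.72) fell as well. Ccl20, which acts through Ccr6, was at 88.1 and 189 CPM in suffixes 4 and 5 but 1.89 CPM in 6, and its call was lost without resolved 1, rest 2, resolving 2, resolved 2 or rest 3. Cxcl12, a chemokine of stromal cells, was not called (0.56, edgeR adjusted p = 0.475).

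Of 14 other inflammatory genes, 5 fell and none rose, with medians of -1.25 in the subset and -1.11 in the other cells. Lcn2, an iron-sequestering acute-phase protein, stood at 174, 215 and 138 CPM in suffixes 4 to 6 and at 17.7, 13.9 and 0 CPM in 7 to 9 (-3.76, SE 0.38, edgeR adjusted p = 2.20e-05). Ptx3, a soluble pattern recognition protein (-1.87), C3 (-1.78) and Ptgs2, which makes prostaglandins (-1.88), fell, as did the antiprotease Slpi outside the list (-1.78). Il6, the cytokine interleukin-6, had -1.23, a call lost without resolved 1, rest 2, peak 2 or resolved 2. Hp (0.67, edgeR adjusted p = 0.333) and Saa3, an acute-phase protein (-0.64, edgeR adjusted p = 0.726), were not called.

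Regulators of BMP and growth factor signals fell in part. Of 10 tested BMP pathway genes, 3 fell and none rose. Smoc2, a matricellular protein, stood at 124, 135 and 85.0 CPM in suffixes 4 to 6 and at 24.8, 6.96 and 6.42 CPM in 7 to 9 (-3.14, SE 0.40, edgeR adjusted p = 0.000186), against -0.27 in the other cells. The other members called were Fst, the activin-binding follistatin (-2.99, lost without resolved 1, rest 2 or resolved 2), and Inhba, an activin chain (-1.15, lost when any library but rest 3 was left out). Fabp5, a fatty acid carrier, stood at 104, 142 and 576 CPM against 17.7, 6.96 and 6.42 CPM (-4.63, edgeR adjusted p = 0.0017). Igf1, the growth factor, fell by 1.29, a call lost without resolved 1. Cpxm2, a carboxypeptidase-like protein, had -3.78.
Cldn10, a tight junction claudin, had 38 UMIs in subset cells of suffixes 4 to 6 and 0 in 7 to 9, at least 5.98-fold lower with a floor of 3 counts over the group (edgeR adjusted p = 0.0161, lost without resolved 2).

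Among matrix and protease genes, more rose than fell. Of 19 protease and inhibitor genes, 5 rose and 2 fell, with a median of 0.46. Ctsk, the collagen-cleaving cathepsin K, stood at 396, 432 and 419 CPM in suffixes 4 to 6, at 872, 1449 and 777 CPM in 7 to 9 and at 2068 CPM in 11 (1.35, SE 0.22, edgeR adjusted p = 0.00185). Timp2, an inhibitor of matrix metalloproteinases, rose by 1.38 and the metalloproteinase Mmp11 by 3.15. Mmp2 (0.74) and the cathepsin inhibitor Cst3 (0.73) were called but both lost the call without resolved 1, peak 2 or resolved 2. Those that fell were the collagenase Mmp13 (-2.02, lost without resolved 1 or rest 2) and Timp1 (-1.22, lost without resolved 1, rest 2 or peak 2).
Fn1, which encodes fibronectin, stood at 2756, 3232 and 4199 CPM in suffixes 4 to 6, at 6604, 10870 and 5310 CPM in 7 to 9 and at 17071 CPM in 11 (1.19, SE 0.23, edgeR adjusted p = 0.00681, lost without resolved 1). Of 9 fibrillar collagen genes none was called (median -0.05), and of 11 other collagens 3 rose and 1 fell, the chains of type VI collagen Col6a1 (0.60), Col6a2 (0.77) and Col6a3 (0.85) and Col12a1 (-0.90). Of these 4 calls, that of Col6a3 was kept whichever library was left out.

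Fbln7, a fibulin, rose from 81.2, 143 and 115 CPM in suffixes 4 to 6 to 422, 689 and 302 CPM in 7 to 9, with 1149 CPM in 11 (2.1, SE 0.29, edgeR adjusted p = 0.000366). Its change was 1.94 in the other cells. Pamr1, a secreted protein with a serine protease-like domain, rose from at most 1.89 CPM to 42.5, 51.0 and 19.3 CPM (4.43, edgeR adjusted p = 0.00052). Chchd10, a mitochondrial protein, stood at 1.73, 6.83 and 5.67 CPM in suffixes 4 to 6 and at 95.7, 109 and 12.8 CPM in 7 to 9 (4.02, SE 0.56, edgeR adjusted p = 0.000462).
The interferon-induced Ifit1 was at 0, 4.10 and 3.78 CPM in suffixes 4 to 6 and at 149, 41.7 and 6.42 CPM in 7 to 9 (4.56, SE 0.80, edgeR adjusted p = 0.00321), highest in resolving 2. Of 5 interferon-induced genes, 2 passed the test, with a list median of 4.20 in the subset and 0.27 in the other cells. Ifit3 (4.20) lost its call without resolved 1, rest 2 or peak 2. Il17d, a cytokine of the interleukin-17 family, had 0 UMIs in suffixes 4 to 6 and 17 in 7 to 9, at least 12-fold higher with the same floor (edgeR adjusted p = 0.0105), and Lrrc34 had 0 and 16, at least 11.3-fold higher (edgeR adjusted p = 0.0193).

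Prg4 was not called between these runs (0.26, SE 0.38, edgeR adjusted p = 0.775, and -0.71 without resolved 2), and neither was any of the retinoid genes apart from Rarres2 (1.36), whose call was lost without resolved 1, peak 2, resolving 2 or resolved 2. Of 12 retinoid genes the median was -0.03. Of 20 limb and joint transcription factors, 1 rose, Hoxa10, a positional homeobox gene of the limb (1.79). Of 11 cell cycle genes, 1 fell, Tyms, which makes thymidylate (-1.45), a call lost without resolved 2.
Among cells with at least 5 subset genes, 91 genes changed, and Cxcl14, Ccl2, Ccl7, Cxcl5, Il6, Slpi, Igf1, Fn1, Mmp2, Mmp13, Rarres2, Hoxa10, Tyms and the collagen genes named above were no longer called, while the value of C3 turned to 0.88. Without the limit on lining genes, the calls of Ccl2, Cxcl1, Il6, Slpi, Sfrp4, Inhba, Mmp2, Col6a1 and Col6a2 were lost. DESeq2 did not call Ifit1, Cxcl5, Ccl20, Il6, Sfrp4, Inhba, Rarres2, Tyms, Col6a1 or Col12a1. With cycling cells left out, the calls of Il6, Fst, Timp1, Mmp2, Ifit3, Inhba, Sfrp4, Rarres2, Tyms and Col6a1 were lost. With at least 3 subset genes, Cpxm2, Cldn10, Cxcl1, Slpi, Igf1, Mmp2, Inhba and Col12a1 lost their calls, and the value of Mmp13 turned to 1.24.

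**Figure D5:**
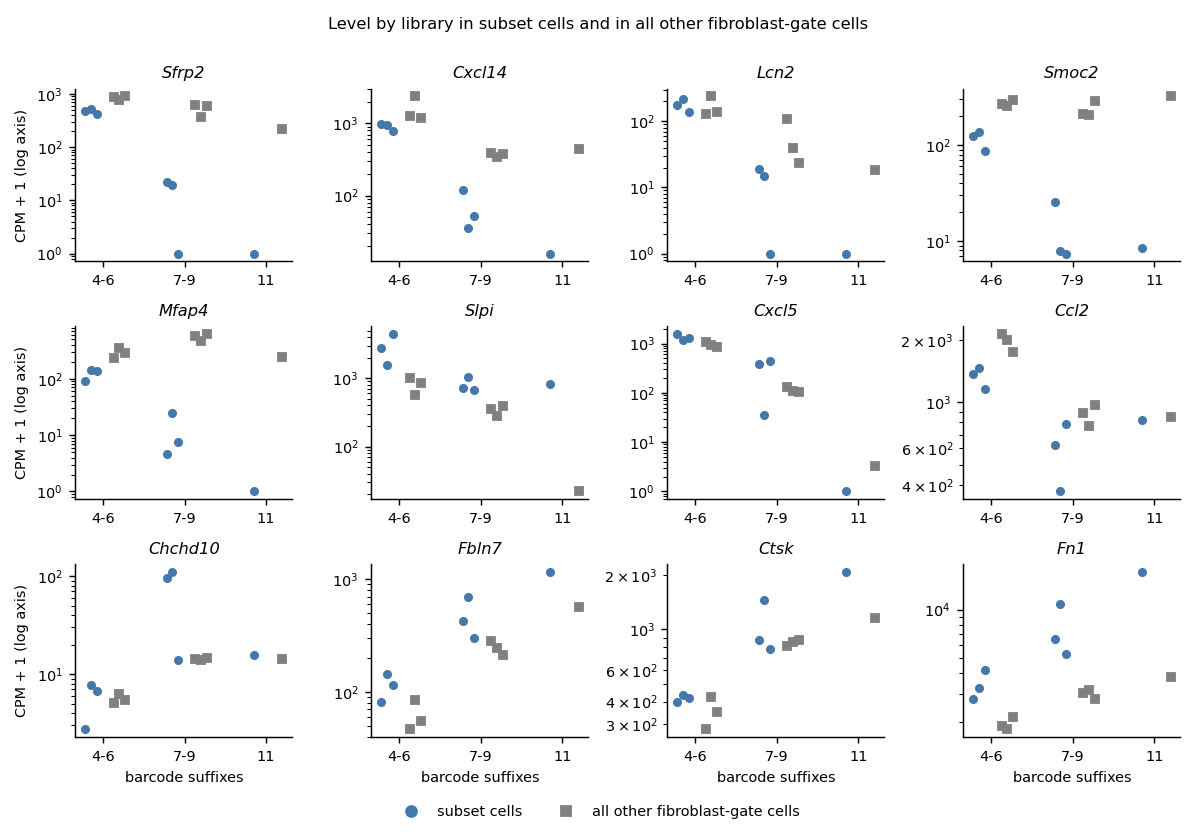
CPM + 1 (log axis) of 12 genes in subset cells and in all other fibroblast-gate cells of the 7 libraries with at least 10 subset cells, ordered by barcode suffix. Sfrp2, Smoc2 and Mfap4 were lower in suffixes 7 to 11 in the subset but not to that extent in the other cells, while Cxcl5, Ccl2 and Fbln7 changed alike in direction in both.

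Whether the subset changed across runs otherwise than all other fibroblast-gate cells was tested as an interaction with the library as a block. Of 10463 genes, 0.927% (97) passed edgeR at an adjusted p under 0.05, and DESeq2 passed 89. Of the 97, 50 were among the genes changed in suffixes 7 to 9 against 4 to 6, beside 4.9% of all genes tested there. Both tests use the same subset sums, so this overlap adds no support to either. The count of interaction genes was 35 without resolving 3 and 183 without resolved 2.
Sfrp2 had the lowest adjusted p (edgeR, 1.45e-06), followed by Mfap4, a microfibril-associated protein (edgeR, 4.33e-06). Mfap4 fell in subset cells from 89.8, 141 and 138 CPM in suffixes 4 to 6 to 3.55, 23.2 and 6.42 CPM in 7 to 9 and 0 CPM in 11, while in the other cells it stood at 236, 349 and 279 CPM and then at 576, 465, 611 and 239 CPM. The 2 cell groups thus moved in opposite directions between the first runs. Lining-gate cells held 8.78 to 33.9 CPM of Mfap4 in suffixes 4 to 6 and 42.5 to 75.3 CPM in 7 to 9. Ptn, the heparin-binding growth factor pleiotrophin, stood at 359, 189 and 270 CPM and then 220, 102 and 250 CPM in the subset, but rose from 263, 293 and 316 CPM to 868, 780 and 801 CPM in the other cells (edgeR interaction adjusted p = 3.69e-05).
Igf1 went from 532, 305 and 368 CPM to 181, 197 and 77.0 CPM in the subset, and from 597, 654 and 773 CPM to 882, 1132 and 745 CPM in the other cells (edgeR interaction adjusted p = 0.000209). Slpi (5.41e-05), Smoc2 (0.000308), Cxcl14 (0.000756), C3 (0.000805), Ccl7 (0.00168), Hp (0.00186), Lcn2 (0.00524) and Fn1 (0.0257) also passed the edgeR interaction test. So did Fxyd6, a regulator of the sodium pump (3.69e-05), Tagln, an actin-binding protein of contractile cells (0.000109), and Bglap, the osteoblast protein osteocalcin (0.000209). Slpi, Bglap and Anxa8 did not pass when resolving 3 was left out.
Anxa8, a calcium-dependent membrane-binding annexin (edgeR interaction adjusted p = 5.41e-05), differed chiefly in suffix 11, where it stood at 14.8 CPM in the subset and 378 CPM in the other cells, against 218 to 305 CPM and 174 to 278 CPM in the other libraries. Suffix 11 holds 12 subset cells.

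Across labels, the same interaction passed edgeR for 0.086% of genes (9 of 10463) and DESeq2 for 0. They were Fabp5 (edgeR adjusted p = 0.00207), Itm2a, Timp1, the neuropeptide precursor Tac1, the matrix protein Aspn, Ccl20, Pi16, Fibin and the interferon-induced chemokine Cxcl10. Fabp5 was highest in the peak library in subset cells, at 576 CPM against 142 and 6.42 CPM in the rest libraries, whereas in the other cells resolved 1 was highest, at 673 CPM. The rest libraries, from different suffix runs, lay far apart.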

How the data were processed

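Per the study's methods, the authors made libraries with the 10x 3′ version 2 kit and aligned reads with Cell Ranger to mm10. They deposited UMI counts per gene and cell. The median UMI count over deposited cells is the same in every library, and how this came about is not given in the sources used here. Of 27998 gene identifiers, 27645 matched GENCODE M21, which gave positions on GRCm38. The members, marker lists and comparisons were chosen with earlier results of these data known. Each library pools 3 animals.

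UMIs were summed per library over at least 10 cells. These sums went into edgeR 4.0.16 under R 4.3.3, where low genes were removed by filterByExpr, libraries scaled by TMM and groups compared by quasi-likelihood F-tests (two-sided), and p-values were adjusted by Benjamini-Hochberg across every gene tested. Changed genes had an adjusted p under 0.05 with a fold change above 0.5 on the log2 scale in either direction, and interactions were called on the adjusted p alone. The 18 rule genes were left out of calls in subset cells. No library suffixed 1 to 3 had 10 subset cells, so the planned comparisons with that run could not be fitted, and suffixes 7 to 9 against 4 to 6 were compared instead, a choice made after seeing the data. Shares were tested by exact permutation over libraries, and intervals are exact binomial ones at 95% that cover counting error only. Genes were named as those with the 20 highest and 10 lowest subset ratios and one direction in every library, the largest changes per comparison, the lowest interaction p and members of the lists. The fits were tested on simulated data. DESeq2 1.42.0, limma 3.58.1 and scanpy 1.11.5 (Scrublet) were used for alternatives and doublet scores. Doublets were left out only as an alternative: Scrublet's own threshold called 56 cells, and the 6% of cells with the highest scores were used instead.

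Same-numbered libraries deviated together with r from -0.51 to 0.82 across genes, which are not independent replicates, and the numbers are not used as pairs. Alternatives covered the rule's limits, cell filters, normalization, filters on low counts, DESeq2, blocks and leaving out each library.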

Additional observations from a re-analysis of the deposited data

How the results depend on the processing

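Shares across labels and across runs stayed on their side of the threshold under every alternative run. The subset genes past the threshold across runs in all fibroblast-gate cells numbered 6 or 7 of 7, and 0 across labels. The number of genes at least 2-fold higher in subset cells in every library was 5. It was 3 with at least 3 subset genes or against all other fibroblast-gate cells, 22 with at least 5 and 27 without the lining limit. Against the 2650 other cells with fewer than 2 skeletal markers it was 14. It was 8 at 20 CPM and 6 to 10 when 1 library was left out. The count of changed genes at peak (1) was 0 with at least 5 subset genes, without the lining limit, with cycling cells left out or with 20 cells per sum, 9 without the filter on low counts, 8 with the libraries compared alone and 0 to 1 with a library left out. At resolving (0) it was 1 with total counts alone or DESeq2, 41 without the filter and 0 to 1. At resolved (1) it was 0 with at least 3 or 5 subset genes, without the lining limit or compared alone, 7 without the filter and 0 to 1, and with 20 cells per sum it was another gene, which was lower. A replicate block gave 7, 59 and 100 genes at the 3 stages, although the numbers do not pair the libraries.

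Suffixes 7 to 9 against 4 to 6 (316 genes) gave 695 with at least 3 subset genes, 91 with at least 5, 202 without cycling cells, 521 without the filter, 142 in DESeq2 and 133 to 412 with a library left out (167 without resolved 1, 204 without rest 2, 133 without peak 2, 179 without resolved 2). The interaction across runs (97) gave 601 without the lining limit, 35 without doublets, 232 without the filter and 35 to 183. That across labels (9) gave 73 with at least 5 subset genes, 0 without the lining limit or in DESeq2, 2 without doublets, 51 without cycling cells, 5 with total counts, 77 without the filter and 5 to 86. Values reversed for Ibsp and Tnmd (0.59) and Col2a1 (0.53) against the other cells with fewer than 2 skeletal markers. C3 (0.88) and Has1 (-0.33) reversed with at least 5 subset genes, and Mmp13 (1.24) and Cxcl12 (-0.0153) with at least 3. Prg4 (-0.71) reversed without resolved 2, and its values ran up to 0.65 with another library left out. The causes were not tested beyond the fewer or more cells and genes each setting takes. Leaving out cycling cells, or other cells with 2 or more skeletal markers, was chosen after seeing the data. Thinned cells gave no value for sums.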

Other observations

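Without the limit on lining genes, every run had sums of at least 10 cells with 4 or more subset genes, and the comparisons with suffixes 1 to 3 could be fitted. Of 5384 genes tested in edgeR, 670 were higher and 701 lower in suffixes 4 to 6, 351 higher and 277 lower in 7 to 9 and 29 higher and 10 lower in 10 to 12, so that libraries of suffixes 10 to 12 differed from 1 to 3 in far fewer genes than the other runs. Tac1, the precursor of substance P, stood in subset cells at 95.7 and 170 CPM in the resolving libraries and at 1.37 and 0 CPM in the rest libraries (log2 fold change 6.60, SE 0.85, edgeR adjusted p = 0.0549).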
